A study of Mus musculus with 6 samples.

Results

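The genes described here are 34 plasma protein genes, 18 of coagulation, 12 of the complement system and 4 of its lectin pathway. They were chosen by name, as the rows of the authors' deposited table whose gene symbol stands in a fixed list. That list was drawn up with earlier results of these data known. All 34 were found among the table's 16426 genes. The study sequenced RNA of liver tissue from male C57/BL mice in 6 samples. The normal group (3 samples) received saline and the model group (3 samples) received 20% carbon tetrachloride (CCl4) for 10 weeks, a solvent whose breakdown in hepatocytes injures the liver and leads to scarring. A further arm of the design, treated with CCl4 and the flavonoid didymin, was not analysed here.

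The authors' deposited table compares 3 libraries named ly_A with 3 libraries named ly_B. Neither name matches a sample label. The labels therefore do not give the group of either set, and every difference is stated between ly_A and ly_B and not as an effect of CCl4. For the same reason the 18 columns that hold values of single libraries entered no calculation, so no value per sample, spread or depth is shown and each difference rests on the authors' fold change and p-value alone. The labels do not say that each sample is a separate animal, so the p-values may measure technical spread. A positive log2 fold change was read as higher in ly_A, from the order in the comparison's name. A gene is called where the authors' adjusted p is under 0.05, and 14114 genes count as tested, all 34 members among them.

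Coagulation is a chain of liver-made proteases, each cut into its active form by the one before, that ends with thrombin turning fibrinogen into fibrin. Complement is a parallel chain in blood that marks microbes and dying cells with C3 fragments and builds a pore, the membrane attack complex, from its terminal components. Hepatocytes make most proteins of both systems, and several of them belong to the acute phase response, the shift in plasma protein output during inflammation. In RNA of bulk tissue, fewer cells of a type and less RNA per cell cannot be told apart.

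Members were called in both directions, more of them higher in ly_A. By the authors' deposited table, 11 of the 34 members (32.4%) were called higher in ly_A, against 18.1% of all tested genes, and 4 (11.8%) were called higher in ly_B, against 17.7%. Together 15 of 34 (44.1%) passed, against 35.8% of all tested genes. The differences were moderate in size. A difference of at least 2-fold was called for 6 members (17.6%), a share near the 18.8% of all tested genes, and the members' log2 fold changes ran from -1.33 to 1.96 in the authors' deposited table. The median member stood at 0.31 and the median tested gene at 0.07. No test was made of the list as a whole. Since the members were chosen with earlier results known, these shares are descriptions only.

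**Figure D1:**
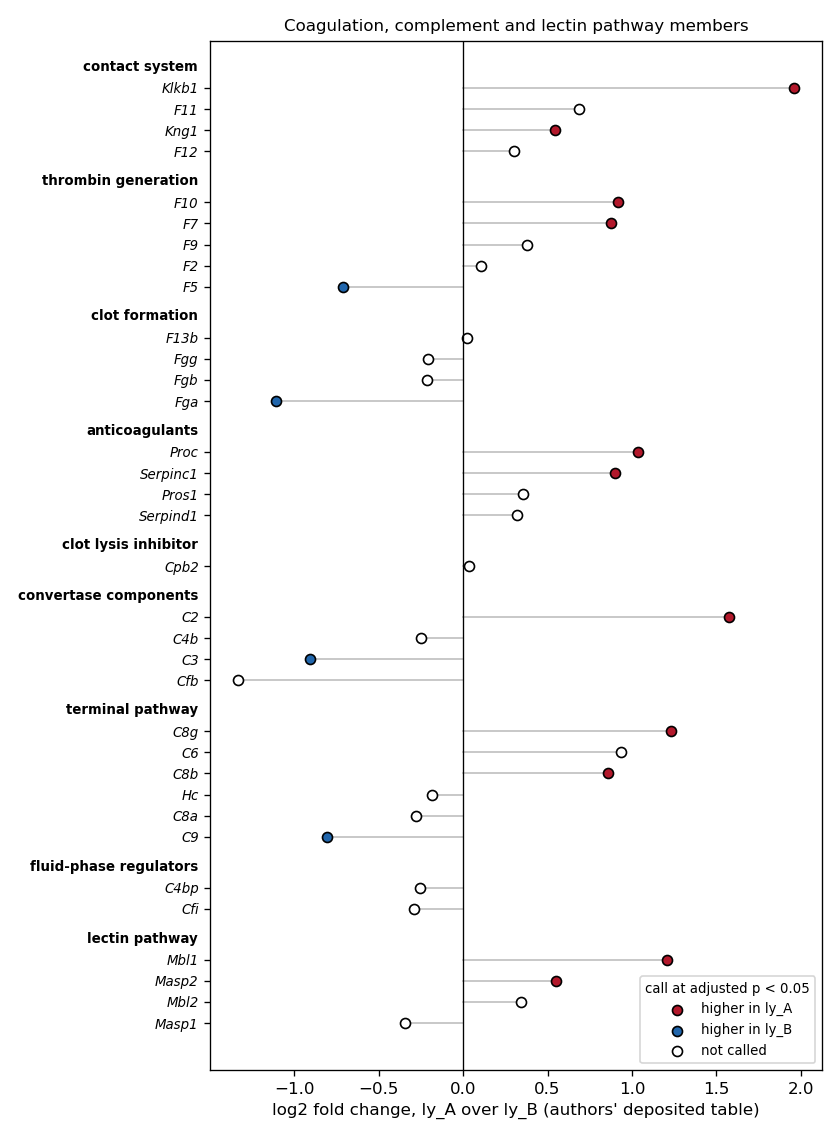
Log2 fold change of ly_A over ly_B (x axis) for each of the 34 members, by role, from the authors' deposited table. Filled points are genes called higher in ly_A (11, red) or in ly_B (4, blue) at an adjusted p under 0.05, and open points are the 19 members without a call. Klkb1 stands farthest right at 1.96 and Cfb farthest left at -1.33, the latter without a call.

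The coagulation members leaned towards ly_A. Of 18, 6 were called higher in ly_A (33.3%, against 18.1% of all tested genes) and 2 in ly_B (11.1%, against 17.7%) in the authors' deposited table, and 14 of the 18 had a positive log2 fold change, against 53.1% of all tested genes. Their median was 0.34. The called genes higher in ly_A were the contact proteins Klkb1 and Kng1, the proteases F7 and F10, and the anticoagulants Serpinc1 and Proc. Those higher in ly_B were Fga, a fibrinogen chain, and F5, a cofactor.

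The 4 genes of the contact system, which starts clotting on charged surfaces and releases the vasoactive peptide bradykinin, all had positive log2 values. Klkb1, plasma prekallikrein, had the largest called difference of any member, 3.90-fold higher in ly_A in the authors' deposited table (adjusted p = 2.82e-08, log2 1.96). Kng1, kininogen, the precursor that kallikrein cuts to free bradykinin, was 1.46-fold higher in ly_A in the same table (adjusted p = 0.0133, log2 0.54). Kng1 has a close copy in the neighbouring gene Kng2, which stood at 0.24 without a call (adjusted p = 0.258) in the authors' deposited table. Reads can be shared between the copies, so both values are uncertain. F11 and F12, the zymogens of factors XI and XII, stood at log2 0.69 (adjusted p = 0.0973) and 0.30 (adjusted p = 0.178) in the authors' deposited table and had no call.

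F11 and Klkb1 arose from a common ancestor and are adjacent protein-coding genes in the RefSeq annotation. Their log2 values in the authors' deposited table lay 1.27 apart, with Klkb1 the higher, and the difference between them was not tested. The promoters are shown because Klkb1 had the largest called difference among the coagulation members and F11 is its neighbour. Each sequence runs 5′ to 3′ from 250 bases before to 50 bases after the start in RefSeq (build GRCm38.p6). Klkb1 lies at chr8:45294786-45295085 and F11 at chr8:45261982-45262281, both on the minus strand. Capitals mark matches, on either strand, to any of the 5 short motifs listed with the fibrinogen promoters.
Klkb1: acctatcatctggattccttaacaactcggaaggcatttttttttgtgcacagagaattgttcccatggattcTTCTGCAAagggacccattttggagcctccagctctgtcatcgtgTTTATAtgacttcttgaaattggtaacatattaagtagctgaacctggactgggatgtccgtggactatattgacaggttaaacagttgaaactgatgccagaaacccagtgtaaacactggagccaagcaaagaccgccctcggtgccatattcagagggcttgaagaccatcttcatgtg
F11: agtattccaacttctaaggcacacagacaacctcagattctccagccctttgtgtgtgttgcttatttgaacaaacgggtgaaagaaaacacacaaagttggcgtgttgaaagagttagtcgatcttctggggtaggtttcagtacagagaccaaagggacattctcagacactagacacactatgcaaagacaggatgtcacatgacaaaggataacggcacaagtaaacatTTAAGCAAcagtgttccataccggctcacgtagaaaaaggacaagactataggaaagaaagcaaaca
Both hold 1 match to the C/EBP motif, at -177 to -170 in Klkb1 and at -17 to -10 in F11, counted from the start. The Klkb1 window also holds the letters of a TATA box at -132 to -127, on the opposite strand.

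Among the factors that generate thrombin, the protease pair F7 and F10 was called higher in ly_A by nearly the same amount. F7, the protease that tissue factor switches on, stood at log2 0.88 (1.83-fold, adjusted p = 0.00114) and F10, which in its active form cuts prothrombin, at 0.92 (1.89-fold, adjusted p = 1.38e-05) in the authors' deposited table. The genes adjoin each other on chromosome 8. F9, which activates factor X together with factor VIII, stood at 0.38 (p = 0.0391, adjusted p = 0.0928), and prothrombin, F2, stood at 0.11 (adjusted p = 0.686) in the authors' deposited table. Neither was called. F5, the cofactor of factor Xa, was 1.64-fold higher in ly_B in the authors' deposited table (adjusted p = 0.000241, log2 -0.71). The protease F10 and its cofactor F5 were thus called in opposite directions.

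Fibrinogen is built from 3 chains in equal numbers, and its genes Fgg, Fga and Fgb are consecutive protein-coding genes on chromosome 3. Fga, the alpha chain, was 2.16-fold higher in ly_B in the authors' deposited table (adjusted p = 0.000137, log2 -1.11). Fgb, the beta chain, at -0.22 (adjusted p = 0.413) and Fgg, the gamma chain, at -0.21 (adjusted p = 0.481) in the authors' deposited table had the same sign without a call. The values of Fgb and Fgg differed from that of Fga by 0.89 and 0.90 on the log2 scale, differences that were not tested. F13b, the carrier subunit of the enzyme that cross-links fibrin, stood at 0.02 (adjusted p = 0.952) and had no call in the authors' deposited table. Cpb2, a carboxypeptidase that slows clot lysis, stood at 0.03 (adjusted p = 0.893) in the authors' deposited table, likewise without a call.

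The promoters of the fibrinogen genes are shown because the chains of one protein, from adjacent genes, had unequal values. The windows are as defined for Klkb1. Fga lies at chr3:83025903-83026202 and Fgg at chr3:83007474-83007773 on the plus strand, and Fgb at chr3:83049814-83050113 on the minus strand. Capitals mark matches on either strand to TATAAA for the TATA box, TTGCNNAA for C/EBP, CAAAGNNCA for the HNF4 core, CTGGGAA for the core of interleukin-6 response elements and TTCNNNGAA for STAT factors.
Fga: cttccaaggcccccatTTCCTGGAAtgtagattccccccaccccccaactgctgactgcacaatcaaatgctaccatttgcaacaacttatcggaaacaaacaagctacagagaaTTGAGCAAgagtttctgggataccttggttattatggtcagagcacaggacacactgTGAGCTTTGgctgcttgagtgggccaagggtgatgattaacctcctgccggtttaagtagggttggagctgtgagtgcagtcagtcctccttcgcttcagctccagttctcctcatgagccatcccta
Fgb: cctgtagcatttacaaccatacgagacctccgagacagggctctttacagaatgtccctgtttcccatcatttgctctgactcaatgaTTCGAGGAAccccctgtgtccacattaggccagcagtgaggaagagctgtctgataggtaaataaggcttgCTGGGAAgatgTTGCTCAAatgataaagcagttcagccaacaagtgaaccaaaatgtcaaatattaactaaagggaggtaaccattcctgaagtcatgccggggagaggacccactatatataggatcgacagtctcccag
Fgg: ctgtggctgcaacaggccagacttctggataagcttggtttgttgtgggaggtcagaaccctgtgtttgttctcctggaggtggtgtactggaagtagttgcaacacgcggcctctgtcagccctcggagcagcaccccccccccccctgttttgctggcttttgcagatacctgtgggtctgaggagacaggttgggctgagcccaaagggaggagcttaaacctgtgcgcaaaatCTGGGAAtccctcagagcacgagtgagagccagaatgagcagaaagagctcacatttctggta
Fga and Fgb each held a C/EBP site, at -135 to -128 and at -80 to -73, and a STAT site at -234 to -226 and at -162 to -154. Fga alone of these held the HNF4 core, at -78 to -70. The CTGGGAA core stood in Fgb at -91 to -85 and in Fgg at -13 to -7, and Fgg held no match to the other motifs in this window. No marked match overlaps another in the promoters printed here. These matches are letters in a window and show neither a bound site nor a cause of the differences.

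Promoter sequences were matched for 27 of the 34 members, 28 windows in all since C8g has 2. The C/EBP motif was found in 9 of the 28 windows (32.1%), against 10.8% of all 32851 promoters of this length in RefSeq. The HNF4 core was found in 6 windows (21.4%, against 6.36%), the STAT site in 6 (21.4%, against 8.30%), the CTGGGAA core in 5 (17.9%, against 11.1%) and the TATA box in 3 (10.7%, against 13.6%). By system, the C/EBP motif stood in 7 of 16 coagulation windows and 2 of 9 complement windows, and the HNF4 core in 5 and 1. The members' windows had a median GC content of 48.3%, against 52.7% for all promoters. The motifs too were chosen with earlier results known, so these shares are descriptions only.

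The inhibitors of coagulation had positive log2 values throughout, and 2 of the 4 were called. Serpinc1, antithrombin, which blocks thrombin and factor Xa, was 1.86-fold higher in ly_A in the authors' deposited table (adjusted p = 2.34e-05, log2 0.90). Proc, protein C, which in its active form cuts factors Va and VIIIa, was 2.05-fold higher in ly_A in the authors' deposited table (adjusted p = 1.73e-05, log2 1.04). Pros1, the protein S that assists it, stood at 0.35 (adjusted p = 0.263) and Serpind1, heparin cofactor II, at 0.32 (adjusted p = 0.334) in the authors' deposited table, without a call. Factors II, VII, IX and X and proteins C and S need vitamin K to mature. Of these 6 genes, 3 were called higher in ly_A and 0 in ly_B, and none had a negative log2 value in the authors' deposited table. Of all tested genes 18.1% and 17.7% were called in these directions and 53.1% had a positive value.

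Complement members were called in both directions. Of 12, 3 were called higher in ly_A (25%, against 18.1% of all tested genes) and 2 in ly_B (16.7%, near the 17.7% of all tested genes) in the authors' deposited table. A positive log2 fold change was found for 4 of the 12 (33.3%), against 53.1% of all tested genes. The median of all 12 was -0.25, while that of the 5 called members was 0.86, so the sign depends on which members enter. Genes called higher in ly_A were C2, C8g and C8b, and those called higher in ly_B were C3 and C9.

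C2 and C3 encode parts of the convertases, the enzyme complexes that cut C3, and were called in opposite directions. C2, the protease of the classical and lectin convertase, was 2.98-fold higher in ly_A and had the smallest adjusted p of any member in the authors' deposited table (adjusted p = 1.27e-10, log2 1.57). C4b, its partner, stood at -0.25 (adjusted p = 0.272) without a call in the authors' deposited table. C4b has a near-identical copy, C4a, that is absent under that symbol from the authors' deposited table. Reads of the pair could be shared, so the value of C4b is uncertain. C3, the central component on which all pathways converge, was 1.87-fold higher in ly_B in the authors' deposited table (adjusted p = 0.000171, log2 -0.91). Cfb, factor B, the protease of the alternative convertase, stood at -1.33, the lowest log2 value of any member in the authors' deposited table, but had no call (p = 0.0378, adjusted p = 0.0903). Cfb and C2 are related proteases encoded side by side on chromosome 17, and their log2 values lay 2.91 apart, a difference that was not tested.

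**Figure D2:**
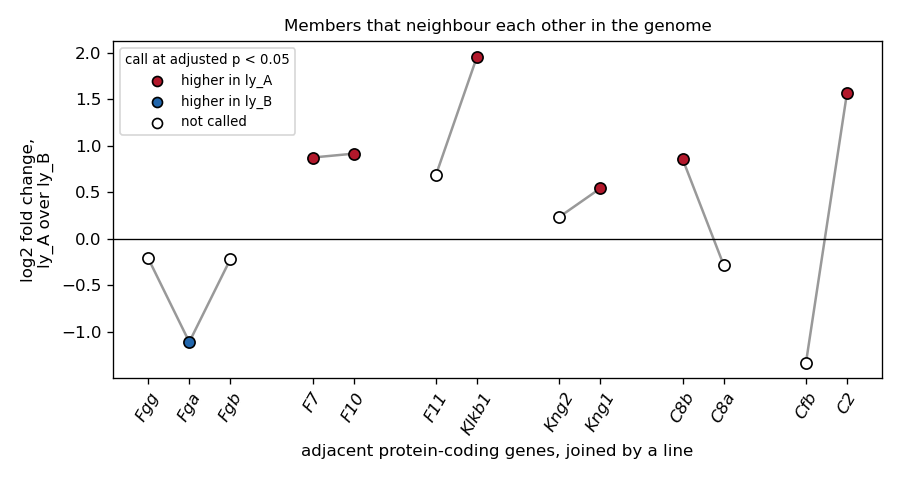
Log2 fold change of ly_A over ly_B (y axis, authors' deposited table) for members that are adjacent protein-coding genes, with Kng2 added beside Kng1. A line joins the genes of a cluster, filled points are called higher in ly_A (red) or ly_B (blue), and open points are not called. F7 and F10 lie together near 0.9, while C2 and Cfb lie on either side of 0 and Fga lies below Fgb and Fgg.

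The promoter of C3 is shown because C3 had the largest called difference towards ly_B among the complement members; the entry for C2, the largest towards ly_A, was not matched. The C3 window lies at chr17:57228087-57228386 on the minus strand (GRCm38.p6, RefSeq), with capitals for the same motifs.
C3: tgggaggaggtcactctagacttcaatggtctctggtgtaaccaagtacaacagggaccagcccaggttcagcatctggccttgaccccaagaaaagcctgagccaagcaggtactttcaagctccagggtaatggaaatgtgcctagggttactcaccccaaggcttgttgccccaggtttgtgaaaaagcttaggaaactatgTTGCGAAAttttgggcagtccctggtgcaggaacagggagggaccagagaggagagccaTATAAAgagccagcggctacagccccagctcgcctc
It held 1 C/EBP match, at -45 to -38, and the letters of a TATA box at 15 to 20 after the annotated start.

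Genes of the terminal pathway, whose products assemble into the membrane pore, were called in both directions. C8 is made of 3 chains. C8g, the lipocalin-like gamma chain, was 2.35-fold higher in ly_A (adjusted p = 9.8e-07, log2 1.23) and C8b, the beta chain, 1.81-fold (adjusted p = 0.00154, log2 0.86) in the authors' deposited table. C8a, the alpha chain and the neighbour of C8b on chromosome 4, stood at -0.28 (adjusted p = 0.319) without a call in the authors' deposited table. C9, which forms the bulk of the pore, was 1.75-fold higher in ly_B in the authors' deposited table (adjusted p = 0.0365, log2 -0.80). C6 stood at 0.93 in the authors' deposited table, a larger value than that of C8b, but was not called (adjusted p = 0.26). Hc, which encodes C5, the component whose cleavage starts the pore, stood at -0.19 (adjusted p = 0.311) in the authors' deposited table.

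Neither fluid-phase regulator was called. Cfi, the protease that inactivates C3b and C4b, stood at -0.29 (adjusted p = 0.236), and C4bp, which holds C4b for that cleavage, at -0.25 (adjusted p = 0.302) in the authors' deposited table. At an unadjusted p under 0.05 the count was also 0. At that threshold 3230 of the 14114 tested genes were higher in ly_A and 3045 in ly_B. These 2 numbers are the background for every count given below at an unadjusted p under 0.05.

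In the lectin pathway, where sugar-binding proteins start complement through their own proteases, 2 of 4 members were called higher in ly_A and 0 higher in ly_B in the authors' deposited table (authors' adjusted p, DESeq2). The shares of all tested genes were 18.1% and 17.7%, and 4 members are too few to read their count against these. At an unadjusted p under 0.05, 1 was higher in ly_B, which was Masp1. Mbl1, mannose-binding lectin A, was 2.31-fold higher in ly_A in the authors' deposited table (adjusted p = 1.41e-09, log2 1.21). Mbl2, mannose-binding lectin C, stood at 0.34 (adjusted p = 0.124) without a call in the authors' deposited table. Masp2, the protease that cuts C4 and C2, was 1.46-fold higher in ly_A (adjusted p = 0.0129, log2 0.55), and Masp1, the protease that activates it, stood at -0.34 (p = 0.0443, adjusted p = 0.102) in the authors' deposited table. Each related pair therefore held 1 called and 1 uncalled member, and the difference within either pair was not tested.

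**Figure D3:**
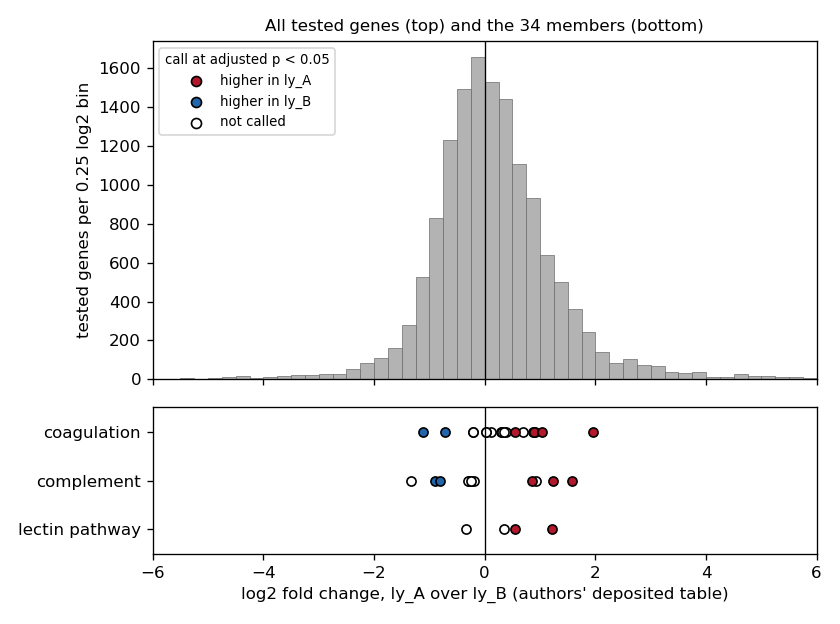
Top, number of tested genes (y axis) per 0.25-wide bin of log2 fold change of ly_A over ly_B (x axis, authors' deposited table); 50 of the 14114 tested genes lie beyond 6 in either direction and are not drawn. Bottom, the members on the same axis by system, red or blue where called and open where not. The members lie between -1.33 and 1.96, and 79.4% of them, against 72.4% of all tested genes, differ by less than 2-fold.

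The 19 members without a call had log2 values from -1.33 (Cfb) to 0.93 (C6), and their adjusted p ran from 0.0903 to 0.952 in the authors' deposited table. Of them, 4 had an unadjusted p under 0.05, namely Cfb, F9, F11 and Masp1. A missing call does not show that the sets had equal values. No comparison was made between the coagulation and the complement members.

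Genes of the same systems that are not members were read from lists chosen for their role, with earlier results of these data known. Of 24 other tested coagulation genes, 6 (25%) were called higher in ly_A and 6 (25%) in ly_B in the authors' deposited table. For this list and those that follow, the shares of all tested genes were 18.1% and 17.7%. Vwf, the platelet-tethering factor of endothelium, was 3.71-fold higher in ly_A (adjusted p = 1.22e-05), Tfpi, the inhibitor of the tissue factor complex, stood at log2 0.91 (adjusted p = 0.0153) and Proz, protein Z, at 0.91 (adjusted p = 0.000386) in the authors' deposited table. F8, the cofactor made mainly by liver sinusoidal endothelium, was also called higher in ly_A in the authors' deposited table (adjusted p = 0.0434, log2 0.79), a call that ended with adjustment over all rows (adjusted p = 0.0505). Markers of endothelium moved the same way. Of 7 tested, 6 were called higher in ly_A and 0 in ly_B, with values from -0.08 for Lyve1 to 1.77 for Stab2 in the authors' deposited table, and their part in the results for Vwf and F8 was not tested. At an unadjusted p under 0.05 the count of endothelial markers higher in ly_B was also 0. Called higher in ly_B were F13a1, the catalytic subunit of factor XIII, at -2.04 (adjusted p = 0.0115), the protease inhibitor Pzp at -0.99 (adjusted p = 0.000117) and the thrombin receptor F2r at -0.88 (adjusted p = 0.00897) in the authors' deposited table. Plg, plasminogen, had no call in the authors' deposited table (0.38, adjusted p = 0.0864).

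Most called complement genes outside the members were higher in ly_A. Of 26 other tested complement genes, 14 (53.8%, against 18.1% of all tested genes) were called higher in ly_A in the authors' deposited table. Called higher in ly_B was 1 (3.8%, against 17.7%), the C5a receptor C5ar1 (adjusted p = 0.00254, log2 -1.74). The largest were Cfp, properdin, which stabilises the alternative convertase, at 1.98 (adjusted p = 7.48e-09), and the cell surface regulators Cd59b at 1.87 (adjusted p = 0.00179) and Cd46 at 1.84 (adjusted p = 1.91e-05) in the authors' deposited table. Cd59a was called higher in ly_A at 1.12 (adjusted p = 1.93e-07) in the authors' deposited table. Cd59a and Cd59b are close copies, so their single values are uncertain. Expression levels were not read, so any of these values may rest on few reads. All 3 chains of C1q, the antibody sensor of the classical pathway, were called higher in ly_A in the authors' deposited table, C1qa at 1.48 (adjusted p = 4.79e-05), C1qc at 1.21 and C1qb at 1.12. Among 4 other tested ficolin and collectin genes, ficolin A, Fcna, was called higher in ly_A at 2.09 (adjusted p = 2.32e-08). Colec12 was called higher in ly_B at -0.82 (adjusted p = 0.0221) in the authors' deposited table.

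C1q and ficolin A are products of macrophages and not of hepatocytes. Of 8 macrophage markers 4 (50%) were called higher in ly_A and 0 in ly_B in the authors' deposited table, against 18.1% and 17.7% of all tested genes. Those called were the Kupffer cell genes Timd4 (3.04) and Clec4f (2.63), with Csf1r (1.10) and Cd5l (0.99). Adgre1 (0.33), Marco (0.05), Lyz2 (-0.10) and Cd68 (-0.20) had no call. At an unadjusted p under 0.05, 0 macrophage markers were higher in ly_B. The part of these markers in the C1q and ficolin values was not tested. F13a1 (-2.04) and C5ar1 (-1.74), both called higher in ly_B, were not assigned to a cell type. All 8 hepatocyte markers, the cells that make most members, were tested, and they were split. Apoa1 (1.22), Ttr (1.07) and Fabp1 (0.66) were called higher in ly_A, Apob (-1.07) and Ahsg (-0.79) were called higher in ly_B, and Alb (0.19, adjusted p = 0.565), Cps1 and Trf had no call in the authors' deposited table. The call of Fabp1 (adjusted p = 0.0473) ended with adjustment over all rows (adjusted p = 0.0551). The hepatocyte list's median log2 value was 0.43, and its part in the members' values was not tested. Of 7 tested stellate cell markers 1 was called, Pdgfrb at -0.67, and of 5 cholangiocyte markers 1, Sox9 at -1.68, both higher in ly_B in the authors' deposited table. At an unadjusted p under 0.05, 4 stellate cell markers (Pdgfrb, Lrat, Col1a1 and Reln) were higher in ly_B and 0 in ly_A. Of the cholangiocyte markers Krt19 was then higher in ly_A and Sox9 in ly_B. Of the 14114 tested genes, 3230 were higher in ly_A and 3045 in ly_B at that unadjusted threshold.

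**Figure D4:**
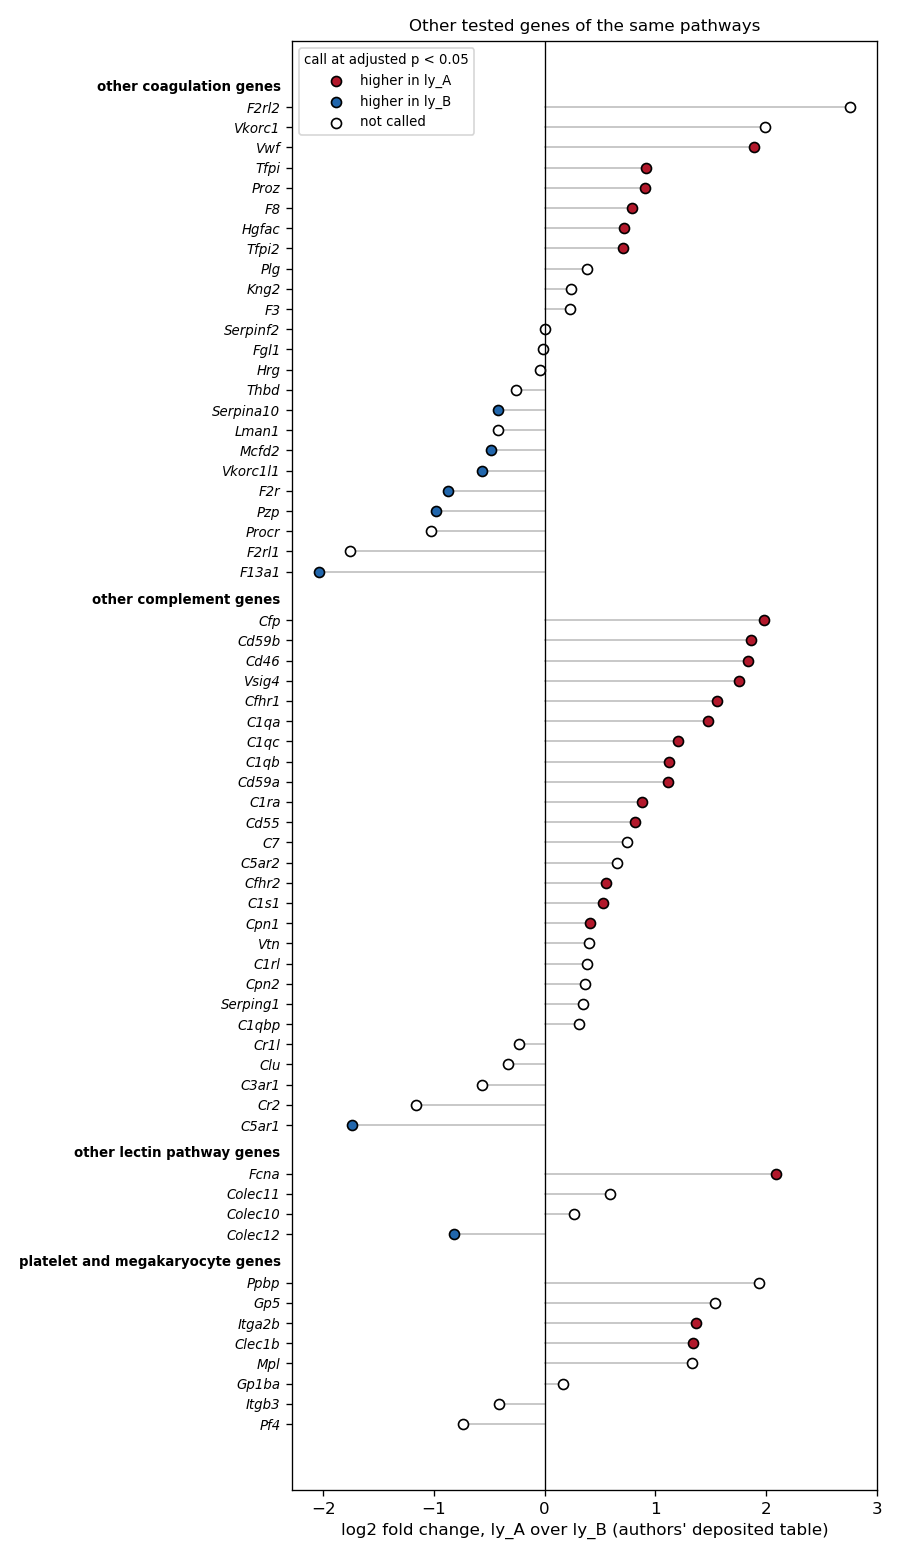
Log2 fold change of ly_A over ly_B (x axis, authors' deposited table) for tested genes of the same systems that are not members, and for platelet genes. Red and blue points are called higher in ly_A or ly_B at an adjusted p under 0.05 and open points are not called. Among other complement genes 14 points are red and 1 is blue, while the other coagulation genes hold 6 of each.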

How the data were processed

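Per the labels' protocols, Trizol was used to extract RNA from liver and a NEBNext kit to prepare libraries. The authors' deposited table gives a log2 fold change, a p-value and an adjusted p-value per gene, all values of the authors' own fit. DESeq2 (version not given) and the build mm9 are named in the submitters' processing notes; aligner, counter and annotation: not given in the sources used here. Altogether 18 columns of single libraries match no sample label and entered no calculation. The sign was taken from the order in the comparison's name, ly_A over ly_B; in the first lines of the table, read by eye, the library columns had that order, which is the one use made of them. In 2312 of 16426 rows the adjusted p was exactly 1. Over the other 14114 rows a recomputed Benjamini-Hochberg adjustment matched it (largest relative difference 9.47e-13), so these were taken as tested. The adjustments were checked on simulated p-values. The members, lists and motifs were chosen with earlier results of these data known. All members are named, with the 3 called genes of largest difference per direction of each other pathway list and a few fixed by name; a few of these are not reported here. Promoters and gene neighbours come from RefSeq, GRCm38.p6, another build than the authors'. The alternatives comprised a threshold of 0.01 on the adjusted p, an added minimum of 2-fold, adjustment over all rows, and Holm adjustment. Python 3.11.15 and pandas 2.3.3 were used.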

Additional observations from a re-analysis of the deposited data

How the results depend on the processing

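Adjustment over all 16426 rows changed no member's call, but ended those of F8 and Fabp1 among other named genes. At an adjusted p under 0.01 the calls of Kng1, C9 and Masp2 ended. That left 5 coagulation, 3 complement and 1 lectin pathway member higher in ly_A. Higher in ly_B were 2 coagulation and 1 complement member. Of the 14114 tested genes, 1736 were then higher in ly_A and 1790 in ly_B. With an adjusted p under 0.05 and at least 2-fold, 2 coagulation, 2 complement and 1 lectin pathway member were higher in ly_A. In ly_B, 1 coagulation and 0 complement members were higher. Of the 14114 tested genes, 1542 were higher in ly_A and 1108 in ly_B, together 18.8%. With Holm adjustment 8 members lost their call (Kng1, F7, F5, Fga, C3, C8b, C9 and Masp2). Then 4 coagulation, 2 complement and 1 lectin pathway member were higher in ly_A. In ly_B, 0 coagulation and 0 complement members were higher. Of the 14114 tested genes, 661 were higher in ly_A and 686 in ly_B. Minus the median of all tested genes, the median log2 value was 0.27 for coagulation and -0.32 for complement members, and over called members only it was 0.89 and 0.86, the latter a change of sign. Every alternative used the authors' own fold changes and p-values, so none bears on their normalisation or filters. No paired analysis was possible because the library columns carry names that match no labelled sample. Leaving out single libraries was not run for the same reason.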

Other observations

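Among 18 regulator genes known to act in hepatocytes, 3 (16.7%) were called higher in ly_A and 5 (27.8%) in ly_B in the authors' deposited table. The shares of all tested genes were 18.1% and 17.7%. Cebpb, a transcription factor of the acute phase response, stood at log2 1.69 (adjusted p = 1.37e-15), the bile acid receptor gene Nr1h4 at 1.45 (adjusted p = 3.72e-08) and the interleukin-6 receptor gene Il6ra at 0.92 (adjusted p = 0.00393) in the authors' deposited table. Onecut1, Foxa3 and Onecut2, transcription factors of liver development, stood at -4.05 (adjusted p = 3.35e-34), -1.06 (adjusted p = 4.41e-06) and -0.99 (adjusted p = 7.07e-05) in the authors' deposited table. Hnf4a (-0.05, adjusted p = 0.876) and Cebpa (0.01, adjusted p = 0.98) had no call in the authors' deposited table. Stat3, which carries the interleukin-6 signal to the nucleus, was called higher in ly_B in the authors' deposited table (-0.70, adjusted p = 0.000552); it was picked after its value was seen. These values are for transcripts of the regulators and do not measure their activity.

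Of 8 tested genes of platelets and megakaryocytes, 2 (25%) were called higher in ly_A and 0 in ly_B in the authors' deposited table. The shares of all tested genes were 18.1% and 17.7%. Itga2b, the platelet fibrinogen receptor chain, stood at log2 1.37 (adjusted p = 0.00118) and Clec1b, a receptor also carried by Kupffer cells, at 1.34 (adjusted p = 0.00196) in the authors' deposited table. Pf4, a platelet chemokine, stood at -0.74 without a call (adjusted p = 0.225) in the authors' deposited table. At an unadjusted p under 0.05, 0 of the 8 were higher in ly_B, against 3045 of the 14114 tested genes.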
